A study of Mus musculus with 4 samples.

Results

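Chaperone genes of the cytosol and the mitochondrion were followed across 4 Affymetrix mouse genome arrays of RNA labelled as coming from MC/9 cells. Members were chosen by symbol: genes annotated with names starting Hspa, Hspb, Hspd, Hspe, Hsph, Hsp90 or Dnaj, the chaperonin genes Tcp1, Cct2, Cct3, Cct4, Cct5 and Cct7, and Ahsa1, Stip1, Trap1, Bag3 and the heat shock factors. The endoplasmic reticulum chaperones Hspa5, Hsp90b1, Hspa13, Dnajb9, Dnajb11, Dnajc3 and Dnajc10 were left out by rule, although some J proteins of that membrane (Dnajb12, Dnajb14, Dnajc1) stayed in. This gave 76 of 18193 genes with a probe set, read by 184 probe sets, and Hsp90ab1 and Hsf1 were not analysed here. A further 3 probe sets are annotated to Dnajc19 together with its pseudogene and were not used.

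The BER group was given berberine, a plant alkaloid known to inhibit mitochondrial complex I, at 10 microM, and the BER+DNP group was given berberine and anti-DNP IgE together. The DNP group was given anti-DNP IgE, an antibody to the hapten dinitrophenyl, at 500 microg/ml, and the control group was untreated. Treated cells were kept for 24 h with the agents and cultured for another 6 h at 37 degrees C, and the labels give no times for the control. MC/9 is an immortal mast cell line whose labels give a liver origin, an age of 13 days and the background (B6 X A/J)F1, shared by all 4 groups. Each group held 1 array, so no value below has a replicate error, no test was possible, and every difference is between 2 arrays only. The number of arrays limits the precision.

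Molecular chaperones bind unfolded or partly folded proteins and let them fold, refold or be degraded. HSP70 proteins do so in cycles of ATP hydrolysis that J proteins (the Dnaj genes) start and nucleotide exchange factors end, HSP90 takes over late folding clients such as kinases and receptors, and the ring-shaped CCT chaperonin folds actin and tubulin. Heat shock factors bind repeated GAA units (heat shock elements) in the promoters of many of these genes when unfolded proteins accumulate.

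Values are log2 signals as the authors deposited them. For each gene the brightest probe set was read, and genes with a mean signal below 3.138, the median of 45037 non-control probe sets, were set apart as dim. Of the 76 chaperone genes, 61 passed this filter, and 12585 of all 18193 genes did. The dimmest chaperone gene to pass was Dnajc18 with a mean of 3.24, and the brightest not to pass was Hsph1 with 3.13. Signals of different probe sets are not levels of expression, so no gene is ranked against another by signal. The arrays correlated at r between 0.988 and 0.991 across probe sets. Of 12 mast cell markers 6 passed the filter, namely Gata2, Hdc, Tpsb2, Mcpt4, Fcer1g and Cma1, with means between 5.87 for Gata2 and 3.31 for Cma1. The genes Kit (2.60 to 3.01), Fcer1a (2.31 to 2.58), Ms4a2 (2.54 to 2.85) and Cpa3 (1.90 to 3.15) did not, nor did Mitf and Tpsab1. Of 7 epithelial markers 6 passed, with the keratin gene Krt17 at a mean of 9.60, and Cdh1, between 1.41 and 1.71, did not. Of 6 markers shared by blood cells 3 passed, and Ptprc, Cd53 and Coro1a did not. Of 6 fibroblast markers 5 passed, with the highest mean at 4.53 for Pdgfrb, and Col1a1 did not. Summed linear signals of the mast cell markers were 180 in BER and 181 in control, and 208 in BER+DNP and 207 in DNP, and those of the epithelial markers 1397 in BER and 1372 in control, and 1481 in BER+DNP and 1519 in DNP. The receptor genes Kit, Fcer1a and Ms4a2 of the labelled cell type were thus dim on these arrays, while the receptor subunit gene Fcer1g passed, and fewer cells of a type and less RNA per cell cannot be told apart in such samples.

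The promoters of a few members are shown because they carry the element through which heat shock factors are known to act. On the brightest probe set these genes read lower, higher or level with berberine. Each stretch lies before the start of the gene in the RefSeq annotation of GRCm38.p6 and is written on the strand of the gene, with capitals marking GAA and TTC units that alternate, in either order, with 2 bases between them.
Dnaja1 (chr4:40722319-40722376, + strand): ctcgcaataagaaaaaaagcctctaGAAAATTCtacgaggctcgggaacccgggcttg
Dnajb6 (chr5:29735827-29735889, + strand): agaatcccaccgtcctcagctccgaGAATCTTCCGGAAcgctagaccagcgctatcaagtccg
Dnajc27 (chr12:4082336-4082393, + strand): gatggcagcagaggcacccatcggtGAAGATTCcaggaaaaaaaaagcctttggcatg
Hspe1 (chr1:55088034-55088101, + strand): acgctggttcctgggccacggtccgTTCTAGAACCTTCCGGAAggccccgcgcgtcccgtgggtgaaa
Hspb1 (chr5:135887777-135887854, + strand): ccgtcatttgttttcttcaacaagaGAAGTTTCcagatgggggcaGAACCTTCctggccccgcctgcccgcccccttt
Hspa1b (chr17:34959310-34959367, - strand): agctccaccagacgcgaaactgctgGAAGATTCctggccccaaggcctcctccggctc
GAA and TTC in either order with any 2 bases between form a pair that equals its own reverse complement, so a match holds on both strands, and matches that overlap form a single run. Of the 76 members, 63 matched a promoter of the table by symbol, and 15 of the 63 (23.8%) held a pair in the 250 bases before a start, where 14.5% of the 27025 genes in the table did. A longer run of 3 units in alternation, with the same spacing, was found for Dnajb6, Hspd1 and Hspe1, that is 3 of 63 members (4.76%) against 0.514% of all genes. Hspd1 and Hspe1 lie head to head and share the stretch shown for Hspe1. Among the genes given below as apart in both berberine pairs, Dnaja1, Dnajb6 and Dnajc27 held a pair, and Dnajc17 and Hspa12b did not. Hspa8 was not among the 63 matched members. A match is a description of letters and not evidence of binding, and no match says only that the letters are not in this window.

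Berberine was compared in pairs of arrays that share none: BER against control, without the antibody, and BER+DNP against DNP, with it. The series was set up around berberine as an agent against inflammation. The chaperone genes that stood apart were few and their differences small. In both pairs Hspa8, Dnaja1, Dnajb6 and Dnajc17 read lower by at least 0.32 on the log2 scale (a ratio of 5 to 4), and Hspa12b and Dnajc27 read higher by at least as much. These are 4 of 61 lower (6.56%) beside 1.75% of all 12585 genes, and 2 of 61 higher (3.28%) beside 0.938%. With counts this small and no replicate, neither share is shown to differ from the background. Each of these 6 genes lost its place under at least 1 other setting: with 32 added to the signals before the logarithm, which damps weak readings, Hspa8 alone of the 6 kept it, at -0.44 and -0.41, and without probe sets of suffix x or s Hspa8 lost it. At 1.5-fold the counts were 0 lower and 0 higher in both pairs, where 0.159% and 0.0795% of all genes passed.

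With berberine alone, set against control, 6 of the 61 read lower by at least 0.32 (9.84% beside a background of 7.82%) and 4 higher (6.56% beside 7.22%), close to the background. In BER+DNP against DNP, 9 read lower (14.8% beside a background of 7.34%) and 2 higher (3.28% beside 5.01%). The 9 became 4 by the median of probe sets, where 46 members passed the filter, and 2 with 32 or with 100 added to the signals. At 1.5-fold, Ahsa1 was lower (background 0.985%) and Hspa12b higher (background 1.01%) in BER against control. With the antibody present, Dnajb6, Dnajc14 and Hspa2 were lower at 1.5-fold (background 0.699%) and 0 members higher (background 0.509%). The median of the 61 members lay at -0.03 and -0.07 in these pairs, where the median of all genes lay at 0.00 and -0.02. Of the 61, 27 (44.3%) were below 0 in both pairs and 13 (21.3%) above 0 in both, where all genes gave 29.7% and 25.4%. Taken singly, BER against control had 35 of 61 (57.4%) below 0 beside 49.9% of all genes, and BER+DNP against DNP had 40 (65.6%) beside 53.2%. Over the 76 members without the filter, 4 read lower and 2 higher in both pairs by at least 0.32, beside 1.41% and 0.808% of all 18193 genes.

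The tilt below 0 lay among the bright members. Of 34 members at or above the 75th percentile of signal (4.31), 21 (61.8%) were below 0 in both berberine pairs and 3 (8.82%) above, beside 32.7% and 24.3% of 7483 genes as bright. Of the 27 dimmer members past the filter, 6 (22.2%) were below 0 in both pairs and 10 (37.0%) above, beside 1295 and 1376 of 5102 genes. Across the 61 members, the mean signal and the mean of both berberine differences correlated at r = -0.42 (rho = -0.41), and across all genes at r = -0.11 (rho = -0.09). These correlations are across genes on the same 4 arrays and serve as a description only. All 4 genes lower in both pairs belong to the bright members, and both genes higher in both pairs to the dim ones. Under quantile normalization 2 of the 61 members were lower in both pairs and 2 higher, beside 1.32% and 1.19% of all genes. Hspa8 (-0.46 and -0.34) and Dnajc17 (-0.40 and -0.34) stayed lower. Hsp90aa1 then gave -0.18 and -0.14, in place of -0.27 and -0.24, and Hspb1 0.04 and 0.12. How far a difference between arrays at bright signals enters this tilt was not tested.

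**Figure D1:**
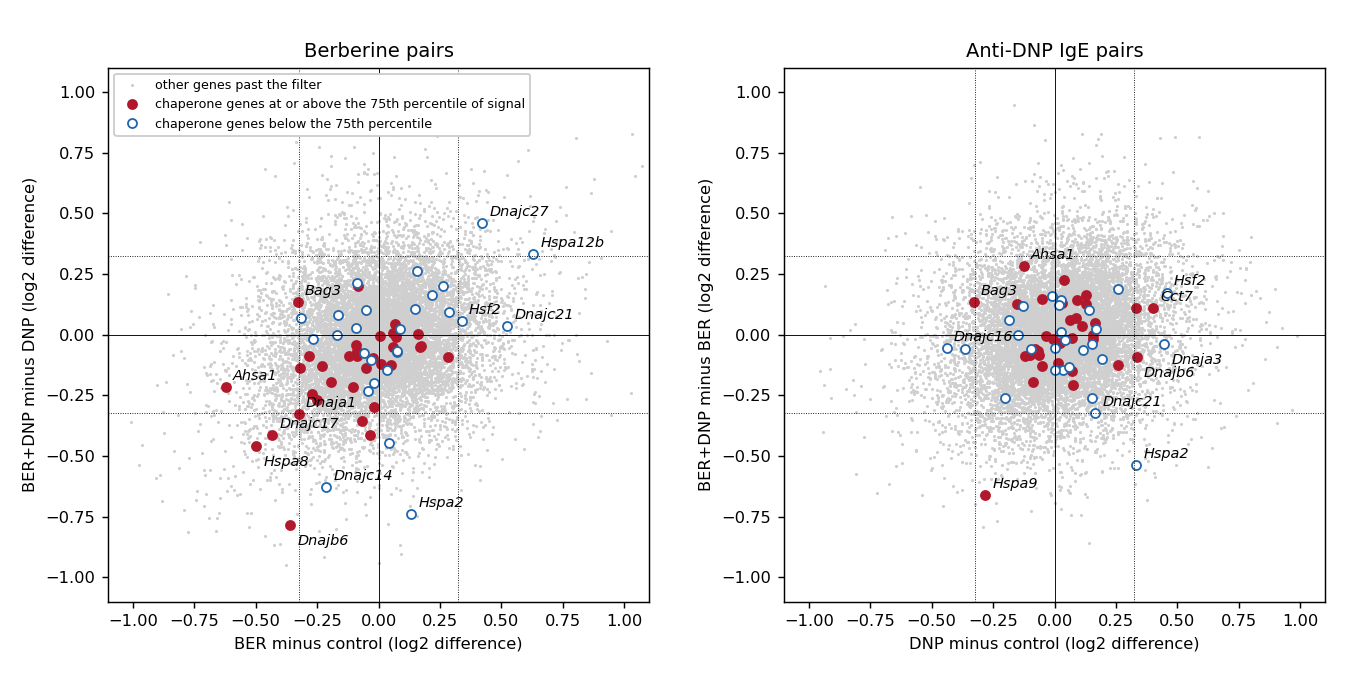
Each point is a gene, placed by its log2 difference in the 2 pairs of arrays that compare berberine (left) and anti-DNP IgE (right); dotted lines mark differences of 0.32 and 7 genes lie beyond the axes of the left panel. Filled chaperone genes, at or above the 75th percentile of signal, lie mostly at the lower left of the berberine panel, with Hspa8 at -0.50 and -0.46 and Dnajb6 at -0.36 and -0.79, while in the right panel the chaperone genes surround 0.

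Hspa8 encodes HSC70, the constitutive HSP70 of the cytosol, which folds new proteins and uncoats clathrin vesicles. Its brightest probe set had log2 signals of 7.70 in BER and 8.20 in control, and of 7.86 in BER+DNP and 8.32 in DNP. Both arrays with berberine lay below both arrays without it, with differences of -0.50 and -0.46. That probe set carries the suffix x, of the kind that can cross-hybridise, and the other probe sets did not all read alike. A dimmer one past the filter gave 0.04 and -0.06, and those below the filter gave -0.38 and -0.61, and -0.18 and 0.08.

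Dnaja1 and Dnaja2 encode farnesylated J proteins that bring unfolded clients to HSC70. Dnaja1 had 5.69 in BER and 6.01 in control, and 5.81 in BER+DNP and 6.14 in DNP, which gave -0.33 in each pair. Its other probe sets lay below the filter and gave 0.12 and 0.22, and 0.01 and -0.13. Dnaja2 had 8.08 in BER and 8.33 in control, and 8.15 in BER+DNP and 8.42 in DNP, or -0.25 and -0.27. A second bright probe set of Dnaja2 gave -0.20 and -0.19, and a dimmer one past the filter 0.03 and -0.07. For both genes the arrays with berberine were the lower ones on the brightest probe set, while Dnaja4, the related J protein gene, stayed between 5.03 and 5.09 on all arrays.

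Dnajb6 encodes a J protein that holds polyglutamine proteins back from aggregating. It had 7.21 in BER and 7.57 in control, and 7.12 in BER+DNP and 7.90 in DNP, with differences of -0.36 and -0.79. On this probe set the array with the antibody alone was the highest of the 4, and on the other 3 past the filter control was. Those 3 probe sets were all below 0 in both berberine pairs, at -0.56 and -0.06, -0.11 and -0.21, and -0.16 and -0.05. Dnajb6 is also among the 3 members with a run of 3 heat shock units before the start, as shown above.

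Dnajc17, a nuclear J protein gene tied to splicing, had 6.38 in BER and 6.82 in control, and 6.32 in BER+DNP and 6.74 in DNP, or -0.43 and -0.41. That probe set carries the suffix s, given to sets that match several transcripts, and the next one past the filter gave -0.14 and -0.33. Both arrays with berberine again lay below both without it.

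Hspa12b, a distant HSP70 relative known from endothelial cells, had 3.86 in BER and 3.23 in control, and 3.76 in BER+DNP and 3.42 in DNP, or 0.63 and 0.33. Dnajc27, a Rab-like GTPase gene with a J domain, had 3.79 in BER and 3.36 in control, and 3.73 in BER+DNP and 3.27 in DNP, or 0.42 and 0.46. Both genes read higher on the arrays with berberine, but the arrays without it lay close to the filter of 3.138, so these differences rest on weak signals. The other Dnajc27 probe set, below the filter, gave -0.31 and -0.21.

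**Figure D2:**
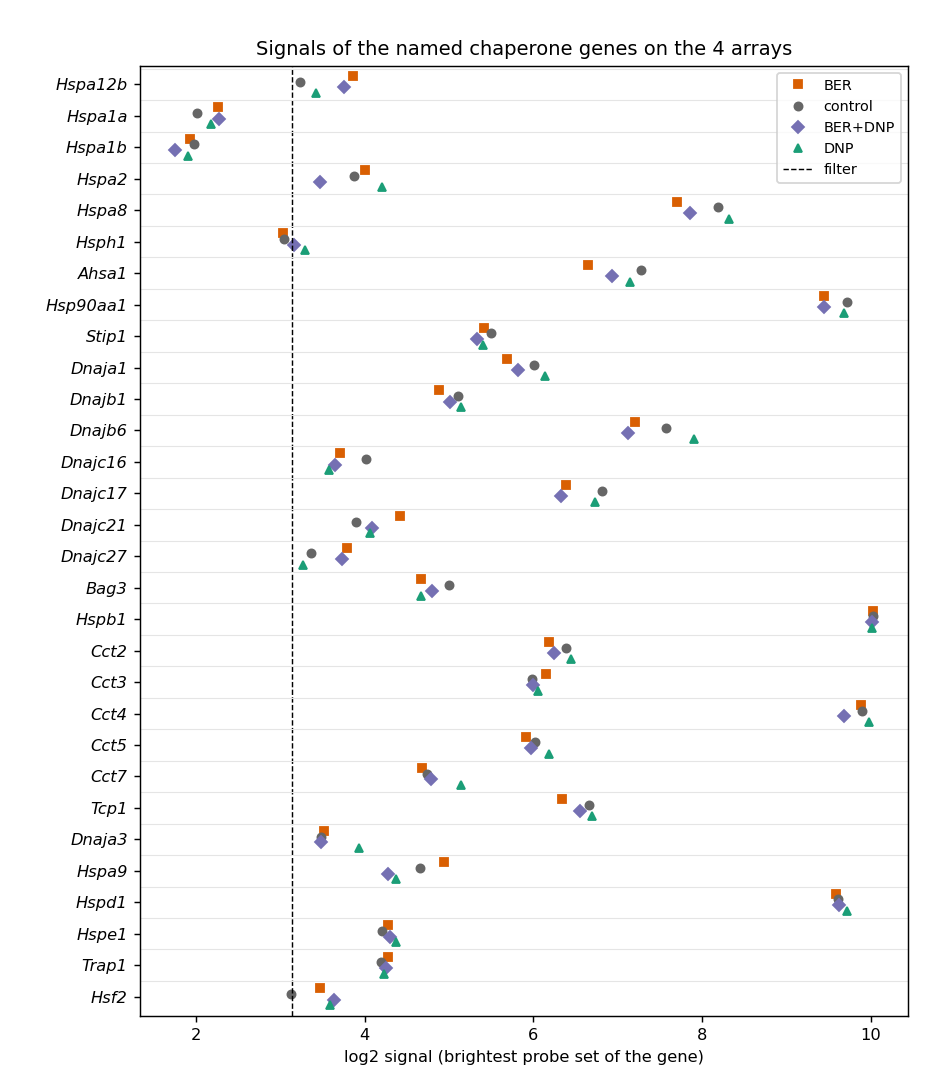
Each row is a named chaperone gene, ordered by role, and each symbol is its log2 signal on 1 of the 4 arrays (x axis); the dashed line is the filter at 3.138. Hspa8, Hsp90aa1, Dnaja1, Dnajb6 and Dnajc17 have both arrays with berberine to the left of both without it, while Hspb1 stays between 10.01 and 10.03.

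The HSP90 machine was read by Hsp90aa1, the stress-responsive cytosolic HSP90, and its helpers. Hsp90aa1 had 9.45 in BER and 9.72 in control, and 9.45 in BER+DNP and 9.69 in DNP, or -0.27 and -0.24. Among its other probe sets past the filter, one gave -0.51 and -0.55, and another 0.29 and 0.00. Ahsa1, which speeds the ATPase of HSP90, had 6.65 in BER and 7.27 in control, and 6.93 in BER+DNP and 7.15 in DNP. Its -0.62 in BER against control was the lowest of the 61 members in that pair, and with the antibody it was -0.22. Its other probe set, also past the filter, gave 0.04 and -0.16, and the median of both gave -0.29 in BER against control, short of 0.32. Stip1, which links HSP70 to HSP90, had 5.42 in BER and 5.50 in control, and 5.33 in BER+DNP and 5.40 in DNP. All 3 genes were below 0 in both pairs, beside 29.7% of all genes, and Stip1 by no more than -0.09.

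The inducible HSP70 genes Hspa1a and Hspa1b, which rise steeply in heat shock, were dim on every array. Hspa1a had 2.26 in BER and 2.02 in control, and 2.27 in BER+DNP and 2.17 in DNP. Hspa1b, whose sequence is nearly identical, had 1.93 in BER and 1.98 in control, and 1.75 in BER+DNP and 1.90 in DNP. Signals of these genes cannot be told apart with confidence, and at such signals small differences do not show that the genes were level. Dnajb1, the J protein partner of inducible HSP70 and a heat shock gene itself, had 4.88 in BER and 5.11 in control, and 5.01 in BER+DNP and 5.14 in DNP, or -0.23 and -0.13. A dimmer Dnajb1 probe set past the filter gave 0.02 and -0.01. Hsph1, an HSP110 exchange factor, lay just below the filter, with 3.03 in BER and 3.04 in control, and 3.16 in BER+DNP and 3.30 in DNP.

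Among the other HSP70 genes, Hspa2, known for its role in sperm formation, had 4.01 in BER and 3.87 in control, and 3.47 in BER+DNP and 4.21 in DNP. The array with both agents was the lowest of the 4. Hspa14, a ribosome-linked HSP70, differed by -0.05 and -0.14, and Hspa12a by 0.08 and -0.07. The HSP110 genes Hspa4 and Hspa4l, exchange factors for HSP70, differed by -0.02 and -0.20 and by -0.09 and -0.09. Bag3, an exchange factor that steers clients to autophagy, had 4.67 in BER and 5.00 in control, and 4.80 in BER+DNP and 4.67 in DNP. Control was the highest of the 4, and the berberine differences were -0.33 and 0.13. Hspbp1, another exchange factor gene, stayed between 5.81 and 5.93.

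Of the 6 CCT subunits within the naming rule, 5 were below 0 in both pairs, where 29.7% of all genes were. Cct6a (0.19 and 0.05) and Cct8 (-0.28 and 0.03), the subunits outside the rule, were not. Tcp1, the alpha subunit, had 6.34 in BER and 6.66 in control, and 6.56 in BER+DNP and 6.70 in DNP, or -0.32 and -0.14. Cct2 had 6.19 in BER and 6.38 in control, and 6.25 in BER+DNP and 6.44 in DNP, or -0.19 in each pair. Cct7, on a probe set of suffix s, had 4.68 in BER and 4.74 in control, and 4.78 in BER+DNP and 5.14 in DNP. Its -0.36 with the antibody went with a high DNP array on that probe set. The other Cct7 probe set past the filter gave -0.32 and -0.31. Cct4 gave -0.02 and -0.30 and Cct5 -0.10 and -0.22. Under quantile normalization Cct4 gave 0.03 and -0.21, and so was not below 0 in both pairs. Read by the median of its probe sets in place of the brightest, Cct4 gave 0.12 and 0.07, but its other 6 probe sets all lie below the filter. Cct3, the exception, gave 0.17 and -0.05 on its brightest probe set, and its other 5 probe sets past the filter ranged from -0.25 to 0.19 without and from -0.22 to 0.37 with the antibody. The median of the 6 subunits of the rule was -0.08 and -0.21. On the brightest probe sets only Cct7, in the pair with the antibody, passed 0.32.

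Actin, which CCT folds, was also lower with berberine in the control probe sets for beta-actin. These gave -0.57 and -0.59 at the 5′ end of the transcript, -0.54 and -0.51 in its middle and -0.31 and -0.22 at its 3′ end, while those for Gapdh lay between -0.08 and 0.12. The 15 poly-A controls, added during sample preparation, differed by -0.38 in the median without the antibody and by -0.04 with it. The part of RNA quality or sample preparation in the lower chaperone signals was not tested.

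The mitochondrial chaperones mostly differed little. Hspd1, the HSP60 chaperonin of the matrix, had 9.59 in BER and 9.61 in control, and 9.63 in BER+DNP and 9.72 in DNP, or -0.02 and -0.10. Its partner Hspe1 had 4.28 in BER and 4.21 in control, and 4.31 in BER+DNP and 4.37 in DNP, or 0.08 and -0.07. The other Hspe1 probe set, nearly as bright and of suffix s, gave -0.23 and -0.11. Trap1, the mitochondrial HSP90, ranged from 4.19 to 4.28. Hspa9, the matrix HSP70 that pulls in imported proteins, had 4.94 in BER and 4.66 in control, and 4.28 in BER+DNP and 4.38 in DNP, or 0.28 and -0.09. Its probe sets disagreed: a second past the filter gave -0.46 and 0.50, and the other 2 gave 0.24 and -0.11, and 0.43 and -0.10. No direction is given for Hspa9 on this account. Dnaja3, a matrix J protein, had 3.52 in BER and 3.48 in control, and 3.48 in BER+DNP and 3.93 in DNP. Only the DNP array stood apart on this probe set, at a mean of 3.60. Its other probe sets, below the filter, gave 0.23 and 0.16, and -0.04 and 0.45. Dnajc11 gave -0.28 and -0.09, Dnajc15, of the import motor, 0.03 and -0.15, and Dnajc30 -0.05 and 0.10. The 8 mitochondrial genes had medians of 0.04 and -0.09. Of the 8, 2 were below 0 in both pairs, beside 29.7% of all genes.

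Small heat shock proteins hold unfolded proteins without using ATP. None of the 6 past the filter was below 0 in both pairs, and 4 (Hspb2, Hspb3, Hspb7 and Hspb11) were above 0 in both, beside 29.7% and 25.4% of all genes, with medians of 0.15 and 0.07. Hspb1, the HSP25 of the mouse, had 10.03 in BER and 10.02 in control, and 10.01 in BER+DNP and 10.02 in DNP. On the brightest probe sets this was the narrowest range among the named genes. The other Hspb1 probe set past the filter, of suffix x, gave -0.10 and 0.01. The promoter of Hspb1 holds a pair of heat shock matches. Hspb8, the partner of Bag3, gave 0.17 and -0.05 on its brightest probe set, and its others past the filter gave -0.42 and -0.04, and 0.01 and 0.11. Hspb2, a muscle gene, gave 0.16 and 0.26. Hspb11, an intraflagellar transport gene despite its name, gave 0.29 and 0.09.

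**Figure D3:**
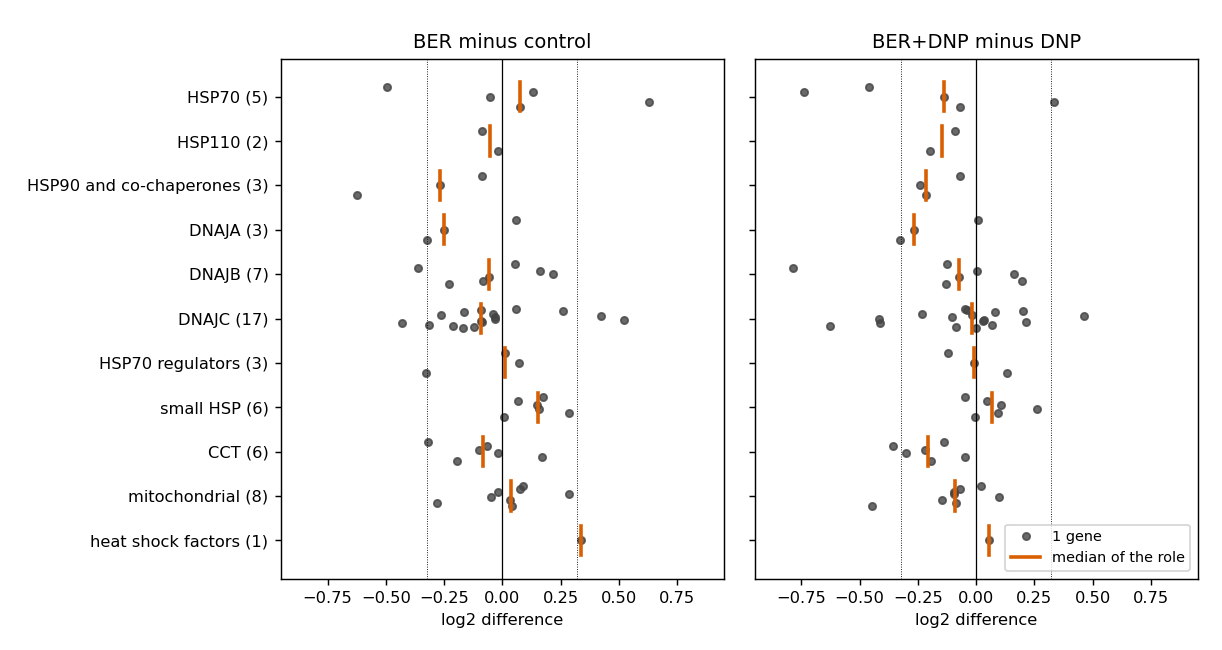
Each point is a chaperone gene past the filter, by role (rows, with the number of genes) and log2 difference (x axis) in BER minus control (left) and BER+DNP minus DNP (right); orange bars are medians of a role and dotted lines mark differences of 0.32. The HSP90 group and the DNAJA group lie furthest below 0 in both pairs and the small heat shock proteins lie at or above 0 in the left panel, while in the right one Hspb8 (-0.05) and Hspb1 (-0.01) lie just below it.

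The remaining J proteins varied without a common direction. Of 17 DNAJC genes past the filter, 8 were below 0 in both berberine pairs and 3 above, beside 29.7% and 25.4% of all genes, with medians of -0.09 and -0.02. Dnajc7, which couples HSP70 and HSP90, ranged from 8.04 to 8.23, and Dnajc8, of the spliceosome, from 6.51 to 6.71. Dnajc14 had 4.12 in BER and 4.33 in control, and 3.85 in BER+DNP and 4.48 in DNP, or -0.21 and -0.63. Dnajc21, of ribosome assembly, had 4.42 in BER and 3.89 in control, and 4.09 in BER+DNP and 4.06 in DNP, or 0.52 and 0.03. Dnajc16 had 3.70 in BER and 4.02 in control, and 3.65 in BER+DNP and 3.58 in DNP. On these probe sets the single array that stood apart, BER for Dnajc21 and control for Dnajc16, set the difference. Other probe sets past the filter did not repeat this. They gave 0.14 and 0.31, and 0.04 and -0.03, for Dnajc21, and -0.08 and -0.44 for Dnajc16. Among 7 DNAJB genes, 3 were below 0 in both pairs, beside the same 29.7%. Dnajb4 gave 0.22 and 0.16, Dnajb5 0.16 and 0.00, and Dnajb12, which helps membrane proteins to be degraded, -0.08 and 0.20.

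Hsf2, the heat shock factor of the naming rule that was read here, had 3.47 in BER and 3.13 in control, and 3.64 in BER+DNP and 3.59 in DNP. The control array was the lowest and lay at the filter, so its 0.34 in BER against control and 0.46 in DNP against control rest on the same weak reading. Its other probe set was dim, at a mean of 1.59.

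The 15 members below the filter were Hspa1a, Hspa1b, Hspa1l, Hsph1, Hspb6, Hspb9, Dnajb2, Dnajb3, Dnajb7, Dnajb13, Dnajc5g, Dnajc6, Dnajc9, Dnajc12 and Dnajc24. Their means ran from 1.59 to 3.13. The widest difference among them was that of Hspb9, with 3.43 in BER and 2.58 in control, and 2.55 in BER+DNP and 2.88 in DNP, or 0.85 and -0.33. Hspa1l, a testis HSP70, gave 0.19 and 0.58. Signals this low give these differences little weight.

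Other probe sets of the same gene shared the sign of the brightest one in a minority of cases. For 27 of the 61 members additional probe sets passed the filter, and of these 44 probe sets 16 had that sign in both berberine pairs. The share over the probe sets of all genes was not computed, so this count does not set the members apart.

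**Figure D4:**
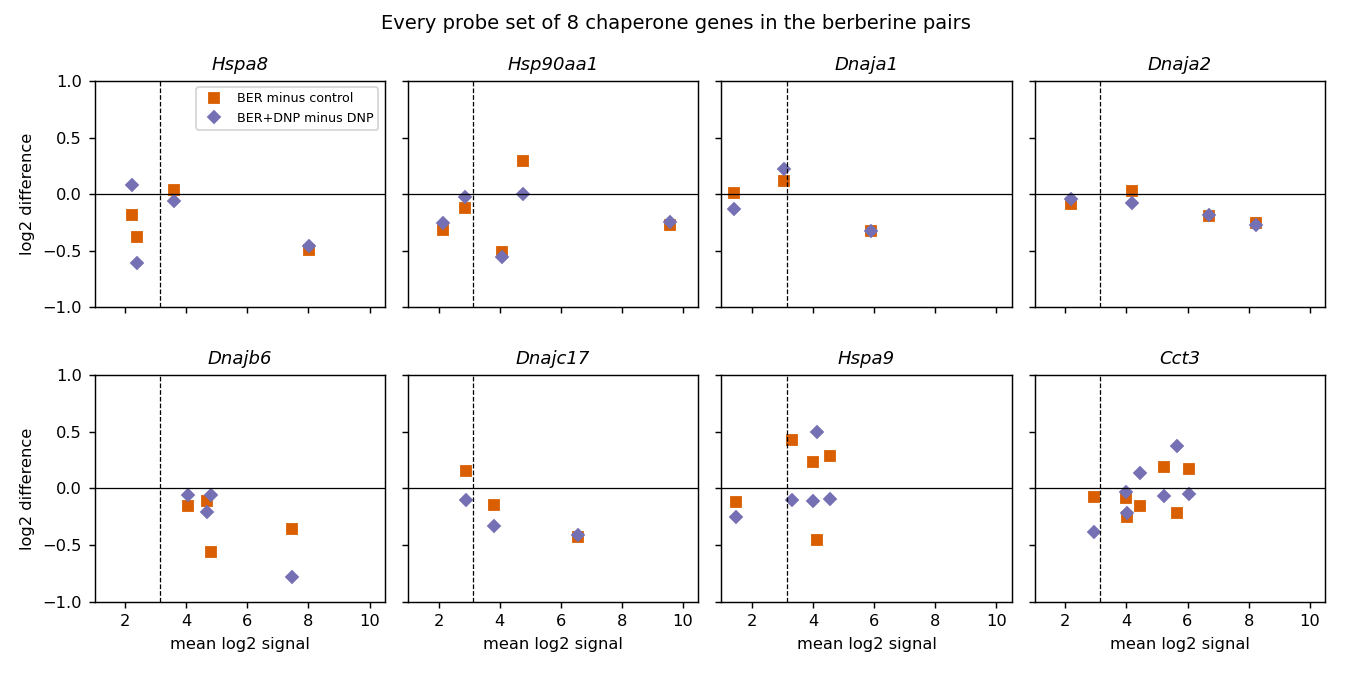
Every probe set of 8 chaperone genes, by mean log2 signal over the 4 arrays (x axis) and log2 difference in the berberine pairs (y axis); the dashed line is the filter. The brightest probe sets of Hspa8, Hsp90aa1, Dnaja1, Dnaja2, Dnajb6 and Dnajc17 lie below 0 in both pairs, those of Dnajb6 past the filter all do, and those of Hspa9 and Cct3 scatter around 0.

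The difference between the berberine pairs, BER+DNP minus DNP less BER minus control, asks whether the antibody went with another berberine difference. On the brightest probe sets it was lowest for Hspa2 (-0.87), Dnajc21 (-0.49) and Dnaja3 (-0.49), and highest for Bag3 (0.46), Ahsa1 (0.41) and Dnajc16 (0.38). On other probe sets past the filter it was 0.17 and -0.07 for Dnajc21, -0.19 for Ahsa1 and -0.36 for Dnajc16. On those of Dnaja3, below the filter, it was -0.07 and 0.49. On the brightest probe sets of Hspa8 (0.04), Hsp90aa1 (0.03), Dnaja1 (0.00), Dnajc17 (0.02) and Stip1 (0.02) it was close to 0. It rests on all 4 arrays with no replicate and was not tested.

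Anti-DNP IgE was compared as DNP against control and as BER+DNP against BER, which share no array with each other. In both pairs 0 of the 61 members read higher by at least 0.32 and 0 lower, beside 1.04% and 0.739% of all genes. Above 0 in both were 18 (29.5% beside 29.4%) and below 0 in both 15 (24.6% beside 26.0%), which is the background. In DNP against control, 6 read higher (9.84% beside 7.64%) and 3 lower (4.92% beside 6.13%), with 23 of 61 (37.7%) below 0 beside 45.4% of all genes. BER+DNP against BER had 0 higher (background 6.13%) and 3 lower (4.92% beside 5.63%), with 35 of 61 (57.4%) below 0 beside 49.9%. At 1.5-fold Hspa9 alone passed, lower in BER+DNP against BER on its brightest probe set (background 0.358%). Its other probe sets past the filter gave 0.39, -0.18 and 0.09 in that comparison, so no direction is given for it. All counts here are of brightest probe sets. No member was higher at 1.5-fold in BER+DNP against BER (background 0.556%). None was higher or lower in DNP against control (backgrounds 0.803% and 0.628%), and none passed in both pairs (background 0.0159% in each direction). Cct7 (0.40), Dnaja3 (0.45), Dnajb6 (0.33), Hsf2 (0.46), Hspa2 (0.33) and Hspb8 (0.33) were the 6 higher in DNP against control, and with berberine they gave 0.11, -0.04, -0.09, 0.17, -0.54 and 0.11. Lower were Bag3 (-0.33), Dnajc16 (-0.44) and Dnajc18 (-0.36) without berberine, and Dnajc21 (-0.32), Hspa2 (-0.54) and Hspa9 (-0.66) with it. Other probe sets past the filter did not all repeat these readings. In DNP against control they gave -0.24, -0.16 and -0.16 for Dnajb6, -0.05 and 0.03 for Hspb8, and 0.49 for Dnajc16. For Cct7 (0.22) and Dnajc18 (-0.25) they kept the sign. Those of Dnaja3, below the filter, gave 0.05 and -0.55. In BER+DNP against BER those of Dnajc21 past the filter gave 0.10 and -0.07. Without and with berberine, the brightest probe set of Hspa8 gave 0.13 and 0.16, of Dnaja1 0.13 and 0.13, and of Hsp90aa1 -0.03 and -0.01. Medians of the 61 were 0.03 and -0.02, and of all genes 0.02 and 0.00. DNP against control and BER against control share the control array. BER+DNP against DNP shares the DNP array with DNP against control, so a high DNP reading, as on the brightest Dnajb6 probe set, enters both.

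Genes that work with the chaperones but are outside the naming rule were read from a list of 42 co-chaperones, prefoldins and mitochondrial proteases, of which 32 passed the filter. In both berberine pairs 1 read lower by at least 0.32 and 0 higher, where 1.75% and 0.938% of all genes did. This was Nudc, an HSP90 co-chaperone gene, with 4.36 in BER and 4.76 in control, and 4.53 in BER+DNP and 4.87 in DNP. The list had medians of -0.07 and -0.07, and 14 of 32 (43.8%) were below 0 in both pairs beside 29.7% of all genes. St13, which steadies the bound state of HSP70, gave -0.19 and -0.31, Bag6 -0.21 and -0.31, and the prefoldin gene Pfdn2 -0.21 and -0.16.

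The endoplasmic reticulum chaperones that the rule leaves out had 6 of 7 genes past the filter, with medians of -0.05 and -0.31. Hspa5, the HSP70 of that compartment, had 8.55 in BER and 8.73 in control, and 8.72 in BER+DNP and 9.03 in DNP. Proteasome subunit genes, which act downstream of chaperones on proteins to be degraded, had 31 of 36 (86.1%) below 0 in both berberine pairs and 5 (13.9%) lower by at least 0.32 in both, beside 29.7% and 1.75% of all genes, with medians of -0.25 and -0.21. The chaperone genes had 27 of 61 (44.3%) below 0 in both, and whether the lists differ was not tested.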

How the data were processed

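The deposited log2 signals came from Affymetrix Expression Console, per the submitters' processing notes. Its version, the summary algorithm and the background correction are not given in the sources used. The log2 scale was read from the values (1.05 to 13.96). Array medians lay between 3.13 and 3.15, and the values were used as deposited. Close medians do not show that bright signals share a scale across arrays. Of the 61 members past the filter, 7 (11.5%) had equal signals on at least 2 arrays, as had 7.12% of all genes; the cause was not tested, and a difference of 0 counts as neither higher nor lower.

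Symbols came from a platform annotation of 2016: 34945 probe sets had 1 symbol, 932 several and 9160 none, and 64 control probe sets were set apart. All 76 members matched a RefSeq gene of GRCm38.p6 by identifier, under the same symbol. Differences of log2 signals were taken with pandas 2.3.3 under Python 3.11.15 and the steps were tested on simulated data. Named with all signals are members past a log2 difference of 0.32 in both pairs of an agent, a core set, and the 3 highest and 3 lowest differences of differences; the others named were added after their values were seen. The 7 alternatives were the median of a gene's probe sets, no probe sets of suffix x or s, no filter, a filter at the 75th percentile, quantile normalization, and 32 or 100 added to the signals, beside a threshold of 1.5-fold. Planned protein motifs were not analysed here. The members, lists and thresholds were chosen with earlier results of these data known.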

Additional observations from a re-analysis of the deposited data

How the results depend on the processing

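No paired analysis was possible because each group holds 1 array, and no replicate could be left out for the same reason. In the order lower in both berberine pairs, higher in both, lower and higher in BER against control, lower and higher in BER+DNP against DNP, the counts of members past a log2 difference of 0.32 were 4, 2, 6, 4, 9 and 2. Reading each gene by the median of its probe sets gave 1, 1, 4, 1, 4 and 1 of the 46 members then past the filter. With 32 added to the signals the counts, of 61, were 1, 0, 3, 0, 2 and 0, and with 100 added 1, 0, 2, 0, 2 and 0. Without probe sets of suffix x or s, and under quantile normalization, those lower in both pairs numbered 2 of 59 and 2 of 61. Lower in both were 1.75% of all genes as reported, 0.982% by the median of probe sets and 1.68% without suffixes x and s. The share was 1.32% under quantile normalization, 0.413% with 32 added and 0.199% with 100 added. Higher in both were 0.938% as reported, 0.661% by the median of probe sets, 0.119% with 32 added and 0.0318% with 100 added. For the single pairs, shares under the median of probe sets and the additions are not given here. A filter at the 75th percentile left 34 members. In both pairs, BER against control and BER+DNP against DNP, 0, 0 and 0 were higher, beside 0.815%, 6.27% and 3.89% of 7483 genes. Lower were 4, 6 and 6, beside 2.35%, 8.04% and 7.67%. The members counted higher before are dimmer than this filter. The median in BER against control was then -0.084. The median in BER+DNP against DNP was -0.017 with 100 added. A threshold of 1.5-fold gave 0 and 0 in both berberine pairs. By the median of probe sets Dnaja1 gave 0.12 and 0.22, and Dnaja3 gave 0.16 in BER+DNP against DNP. Each is a reading of a probe set below the filter. Without suffixes x and s Hspa8 gave 0.038 in BER against control. Members past 0.32 in both anti-DNP IgE pairs numbered 0 under the 7 alternatives run on them. Signals near the filter, as for Hspa12b, Dnajc27 and Hsf2, limit what their differences can show.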
